A study of Mus musculus with 8 samples.

Results

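The 9 genes described here encode the enzymes that write, maintain and remove DNA methylation and the catalytic subunits of the Polycomb repressive complex PRC2. They are *Dnmt1*, *Dnmt3a*, *Dnmt3b*, *Uhrf1*, *Tet1*, *Tet2*, *Tet3*, *Ezh1* and *Ezh2*, chosen by symbol from 23284 genes in the expression tables. Each was listed on 1 row per library with a successful estimate, and all 9 were among the 11198 genes with a mean level of at least 1 FPKM (a fragment count scaled to exon length and to library size) that entered the tests. RNA was sequenced from mouse splenic CD4 T cells of DO11.10 Tg animals, which carry a transgenic T cell receptor specific for an ovalbumin peptide, with 2 libraries in each of 4 groups. Naive cells were sorted as CD44low CD62Lhi and not cultured. Effector cells were grown from such cells for 6 days with ovalbumin peptide on irradiated splenocytes depleted of T cells. For Th1 cells the medium held IL-2 supernatant (30 U/ml), IL-12 (100 U/ml) and anti-IL-4 antibody (1 µg/ml). For Th2 cells it held IL-2 supernatant (30 U/ml), IL-4 (100 U/ml) and anti-IFN-γ antibody (10 µg/ml). For Th17 cells it held IL-6, IL-23 and IL-1β (10 ng/ml each) with anti-IL-4 and anti-IFN-γ antibodies (10 µg/ml each), and no IL-2 is listed for them. No group held T cells that were cultured without stimulation, so stimulation and time in culture cannot be told apart.

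As background, DNMT3A and DNMT3B place methyl groups on cytosines of CpG sites, and DNMT1 copies the marks onto the new strand after replication, guided there by UHRF1, which binds hemimethylated DNA. TET1, TET2 and TET3 oxidize methylcytosine and thereby start its removal. EZH1 and EZH2 are alternative catalytic subunits of PRC2, which methylates lysine 27 of histone H3. In CD4 T cells these enzymes are known to act on the cytokine and lineage factor genes that distinguish helper subsets, and EZH2 and UHRF1 are known as genes of dividing cells.

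The lineage markers followed the labels of the libraries, with 1 exception. The implied number of fragments, computed from the confidence intervals in the tables, was 14463466 to 21058286 per library, lowest in naive cells. Of 12 lineage markers, 11 were higher in both libraries of their own subset than in all 4 other effector libraries, with *Cxcr3*, a Th1-associated chemokine receptor, as the exception. The T cell markers *Cd3e*, *Cd3g*, *Cd3d*, *Cd4*, *Cd28* and *Lck* summed to 1252 to 2094 FPKM. Markers of other cells were not all absent. The 5 B cell markers summed to 2.32 to 12.1 FPKM. The 8 myeloid and dendritic cell markers summed to 9.10 to 30.5 FPKM, with the highest sums in Th2 libraries. Of these markers, *Lyz2*, *Adgre1* and *Itgax* were highest in Th2 libraries. *Cd14*, *Itgam* and *Zbtb46* were highest in Th17, *Csf1r* in naive and *Xcr1* in Th1 libraries. *Cd8b1*, the CD8 beta chain, was at 90.5 and 52.8 FPKM in naive libraries against 8.77 to 12.9 FPKM in effector libraries, whereas *Cd8a* was at 2.94 and 1.77 FPKM in naive libraries and at most 0.268 FPKM in the others. Among 4 neutrophil markers, *Elane* was at 2.59 to 3.71 FPKM in effector libraries of replicate 1 and at 0 in those of replicate 2. *Mpo* was at 2.46 to 4.89 FPKM in the former and at most 0.106 FPKM in the latter. The other markers did not share this: *S100a8* was at 0.174 and 0.181 FPKM in Th1 libraries and at most 0.663 FPKM in any effector library. *S100a9* was at 0 in all effector libraries. The part of these cells in the levels given below was not tested. In bulk RNA, a change in the number of cells that use a gene and a change in RNA per cell cannot be told apart.

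Effector cells of all 3 subsets had more *Dnmt1*, *Uhrf1*, *Tet2* and *Ezh2* mRNA and less *Dnmt3a*, *Tet1*, *Tet3* and *Ezh1* mRNA than naive cells. For the first 4 genes, the 6 effector libraries were all above both naive libraries, and for the other 4 they were all below. Such separation was common, since 30.5% of the genes tested were above in this way and 31.1% below. By limma on log2(FPKM + 1), 8 of the 9 genes passed an adjusted p of 0.05 in Th1 cells (67.3% of all genes tested), 8 in Th2 cells (70.5%) and 9 in Th17 cells (67.3%). In each subset 4 of the genes were higher, against 33.8%, 31.8% and 37.5% of all genes tested in Th1, Th2 and Th17 cells. The lower genes numbered 4, 4 and 5, against 33.5%, 38.7% and 29.8%. Most genes tested changed as well, so the counts are to be read against these shares. The 3 comparisons share the naive libraries. *Dnmt3b* was the gene that did not pass in Th1 or Th2 cells. In Th2 cells fewer of the 9 passed without Th2 replicate 1 or without naive replicate 2. Fewer of all genes tested passed there as well, but their loss was much smaller in proportion than that of the 9.

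**Figure D1:**
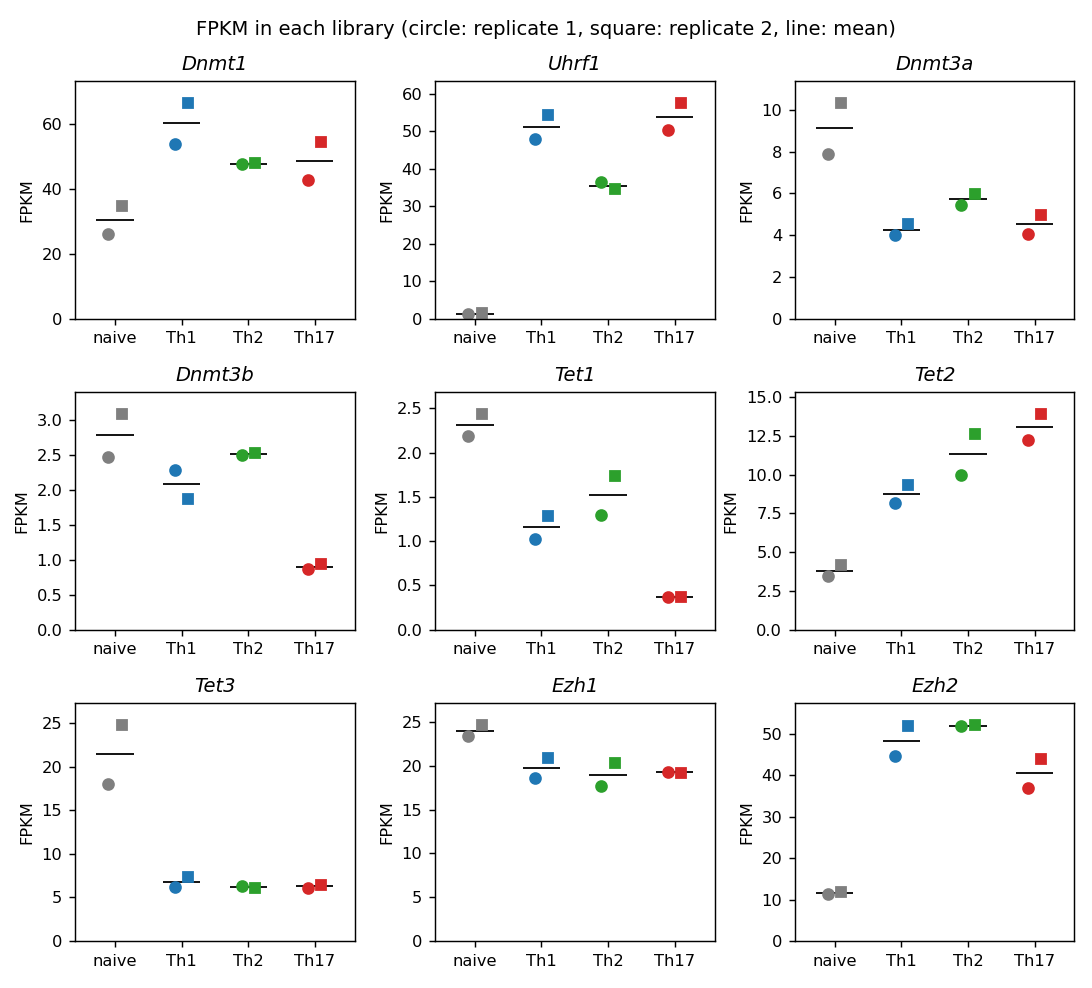
FPKM (y axis, linear from 0, a scale of its own in each panel) of the 9 genes in the 8 libraries, with naive, Th1, Th2 and Th17 cells on the x axis. Circles are replicate 1, squares replicate 2 and lines the mean of both; *Uhrf1* stood at 1.18 and 1.39 FPKM in naive libraries and at 34.5 FPKM or more in the others, and *Dnmt3b* and *Tet1* were lowest in Th17 libraries.

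*Dnmt1*, the maintenance methyltransferase, was the most abundant of the 9 genes in naive cells by mean FPKM. Naive libraries held 26.1 and 34.6 FPKM, Th1 libraries 53.7 and 66.4, Th2 libraries 47.4 and 47.9 and Th17 libraries 42.7 and 54.3. The lowest effector library was thus 1 of Th17 cells, and it was above the higher naive library. The mean rose 1.98-fold in Th1 cells, from 30.4 ± 5.99 to 60.1 ± 8.97 FPKM (SD, n = 2), 1.57-fold in Th2 cells and 1.60-fold in Th17 cells. The log2 differences were 0.97 ± 0.18 (SE, limma adjusted p = 0.00266), 0.65 ± 0.18 (adjusted p = 0.0150) and 0.66 ± 0.18 (adjusted p = 0.0145). The call in Th1 cells held in all 19 settings of the fit, which are the fit as reported, 10 other choices of filter, scale or model and 8 fits that each leave out 1 library. The call in Th2 cells was lost without naive replicate 1 (adjusted p = 0.0836) or without either Th2 library (0.0607 and 0.0656), and the call in Th17 cells without naive replicate 1 (0.0802) or Th17 replicate 2 (0.0906). The gene lies at chr9:20907206-20959888 on the minus strand of mm10.

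*Uhrf1*, the partner that brings DNMT1 to newly replicated DNA, showed the largest change of the 9. It was at 1.18 and 1.39 FPKM in naive libraries, at 48.0 and 54.3 FPKM in Th1 libraries, at 36.5 and 34.5 FPKM in Th2 libraries and at 50.2 and 57.6 FPKM in Th17 libraries. Every effector library was far above both naive libraries, and the Th2 libraries were the lowest of the 6. The mean was 39.9-fold, 27.7-fold and 42.1-fold the naive mean in Th1, Th2 and Th17 cells. On the log2(FPKM + 1) scale, which understates the fold of a low gene, the differences were 4.51 ± 0.11, 4.0 ± 0.11 and 4.59 ± 0.11 (SE, limma adjusted p = 2.85e-07, 3.31e-07 and 2.57e-07). The naive value rests on few reads, with 46 and 85 implied fragments. *Uhrf1* (chr17:56303337-56323486, plus strand) shares 15.4% of its 50-base words, the length of a read, with other transcripts, mostly with *Gm5648*, so reads of these words cannot be assigned to 1 gene by sequence.

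The ratio of *Dnmt1* to *Dnmt3a*, maintenance over de novo enzyme, was 3.30 and 3.34 in naive libraries and was higher in the others, at 13.4 and 14.7 for Th1 cells, 8.70 and 8.03 for Th2 cells and 10.5 and 11 for Th17 cells. No test was made on ratios. The pairs of libraries did not overlap between any of the 4 groups, though in the reported fit neither gene passed between effector subsets. The share of other gene pairs with such separation was not computed. *Dnmt1* made up 71.6% and 72% of the summed FPKM of the 3 DNMT genes in naive libraries and 84.9% to 91.2% in effector libraries. The sum itself was 36.5 and 48.0 FPKM in naive and 47.6 to 72.8 FPKM in effector libraries, so these ranges overlapped.

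*Dnmt3a*, the main de novo methyltransferase of T cells, was at 7.90 and 10.4 FPKM in naive libraries, at 4.01 and 4.53 FPKM in Th1 libraries, at 5.45 and 5.97 FPKM in Th2 libraries and at 4.07 and 4.96 FPKM in Th17 libraries. Both naive libraries were above every effector library, and the Th2 libraries were above those of Th1 and Th17 cells. The naive mean was 2.14-fold, 1.60-fold and 2.02-fold the Th1, Th2 and Th17 means. The log2 differences from naive cells were -0.93 ± 0.15, -0.58 ± 0.15 and -0.87 ± 0.15 (SE, limma adjusted p = 0.00115, 0.00964 and 0.00157). In Th2 cells the call was lost without Th2 replicate 1 (adjusted p = 0.0562) or naive replicate 2 (0.0519). *Dnmt3a* (chr12:3806980-3914443, plus strand) shares 133 exonic bases with the antisense gene *Dnmt3aos*. The labels and the study's methods name different library kits, 1 stranded and 1 not, so reads of the overlap cannot be told apart.

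*Dnmt3b*, the second de novo enzyme, had a different pattern. It was at 2.47 and 3.09 FPKM in naive libraries, at 2.29 and 1.88 FPKM in Th1 libraries, at 2.50 and 2.53 FPKM in Th2 libraries and at 0.866 and 0.943 FPKM in Th17 libraries. The Th17 libraries were the lowest 2 of the 8, while the Th2 libraries lay between the naive ones. Relative to naive cells, *Dnmt3b* fell in Th17 cells by 0.99 ± 0.12 on the log2 scale (limma adjusted p = 0.000351), with a naive mean 3.08-fold the Th17 mean. In Th1 cells the difference was -0.29 ± 0.12 (adjusted p = 0.0700, 95% interval -0.59 to -0.0014) and in Th2 cells -0.10 ± 0.12 (adjusted p = 0.487, interval -0.39 to 0.19). Quantile normalization brought both past the threshold, at -0.61 (adjusted p = 0.00355) and -0.32 (adjusted p = 0.0487), and the Th1 difference also passed without naive replicate 1 (-0.41, adjusted p = 0.0329). The Th17 value rests on 95 and 82 implied fragments. *Dnmt3b* (chr2:153649454-153687730, plus strand) shares 9.81% of its 50-base words with *Dnmt3c*, a copy known for its role in male germ cells.

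**Figure D2:**
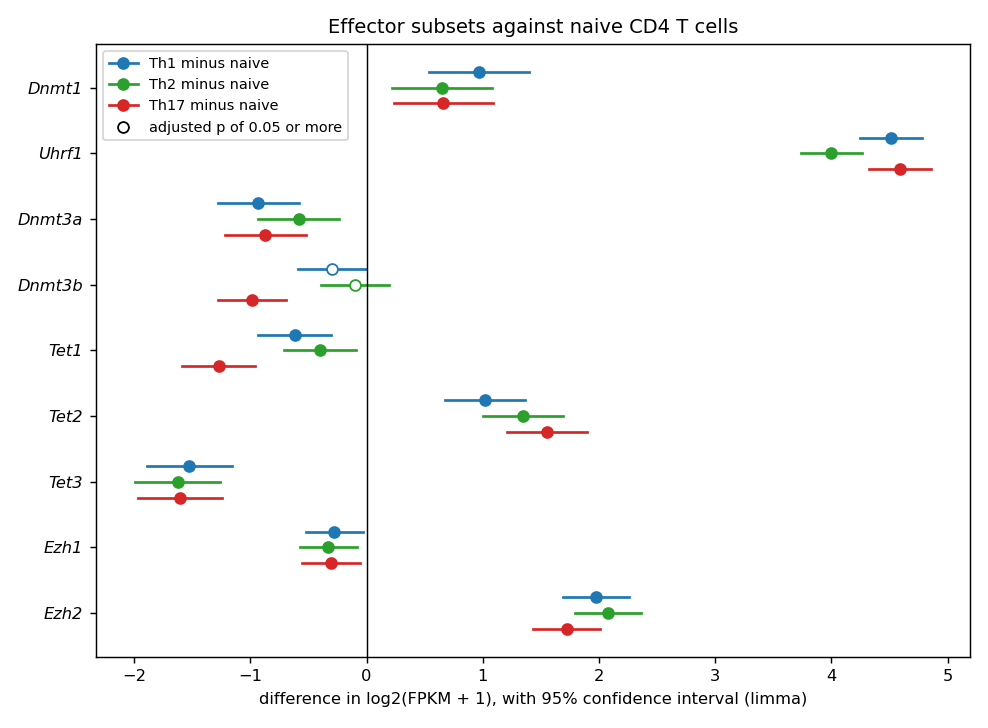
Difference from naive cells in log2(FPKM + 1) (x axis) for each of the 9 genes (y axis) in Th1, Th2 and Th17 cells, as the limma estimate with its 95% confidence interval. Filled points have an adjusted p under 0.05; the 2 open points are *Dnmt3b* in Th1 and Th2 cells, and *Uhrf1* stands apart at 4.0 to 4.59.

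*Tet1* was the lowest of the TET genes in every library. It was at 2.19 and 2.44 FPKM in naive libraries, at 1.03 and 1.29 FPKM in Th1 libraries, at 1.3 and 1.74 FPKM in Th2 libraries and at 0.367 and 0.373 FPKM in Th17 libraries. The Th17 libraries were below all others, and the highest Th1 library was just under the lowest Th2 library. The log2 differences from naive cells were -0.62 ± 0.13 in Th1 (limma adjusted p = 0.00473), -0.40 ± 0.13 in Th2 (adjusted p = 0.0284) and -1.27 ± 0.13 in Th17 cells (adjusted p = 0.000130). On the FPKM scale the naive mean was 6.25-fold the Th17 mean. The call in Th2 cells was lost with a pseudocount of 0.1 (adjusted p = 0.0504), with median scaling (0.0661) and without Th2 replicate 1 (0.111) or naive replicate 2 (0.0928). In Th17 libraries *Tet1* had 156 and 124 implied fragments, and the interval of the authors' program was 0.308 to 0.425 FPKM in replicate 1 and 0.306 to 0.440 FPKM in replicate 2. Its model in mm10, chr10:62804570-62880014 on the minus strand, begins 7310 bases inside the start given by RefSeq.

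*Tet2*, known in T cells as a regulator of cytokine gene activity, moved in the other direction. It was at 3.44 and 4.18 FPKM in naive libraries, at 8.16 and 9.33 FPKM in Th1 libraries, at 9.97 and 12.6 FPKM in Th2 libraries and at 12.2 and 13.9 FPKM in Th17 libraries. All effector libraries were above the naive ones, Th1 libraries were the lowest of the 6, and Th2 and Th17 libraries overlapped. The means were 2.30-fold, 2.97-fold and 3.43-fold the naive mean, with log2 differences of 1.02 ± 0.14, 1.35 ± 0.14 and 1.55 ± 0.14 (SE, limma adjusted p = 0.000695, 0.000150 and 7.96e-05). *Tet2* lies at chr3:133463677-133544390 on the minus strand and shares 43 exonic bases with the antisense gene *Gm42567*.

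*Tet3* was the most abundant TET gene of naive cells, at 18.1 and 24.8 FPKM. In Th1 libraries it was at 6.18 and 7.29 FPKM, for Th2 cells at 6.26 and 6.12 FPKM, and for Th17 cells at 6.11 and 6.46 FPKM. The 3 subsets overlapped, and all 6 effector libraries lay between 6.11 and 7.29 FPKM. The naive mean was 3.18-fold, 3.46-fold and 3.41-fold the Th1, Th2 and Th17 means, and the log2 differences from naive cells were -1.52 ± 0.15, -1.63 ± 0.15 and -1.61 ± 0.15 (SE, limma adjusted p = 0.000125, 7.59e-05 and 8.75e-05). The gene lies at chr6:83362374-83441678 on the minus strand.

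The leading TET transcript therefore differed between naive and effector cells. *Tet3* made up 76.2% and 78.9% of the summed FPKM of the TET genes in naive libraries and 29.9% to 40.7% in effector libraries, and *Tet2* 13.3% to 14.5% and 52.1% to 67.1%. The ratio of *Tet2* to *Tet3* was 0.191 and 0.168 in naive libraries, 1.32 and 1.28 for Th1 cells, 1.59 and 2.07 for Th2 cells and 2.00 and 2.16 for Th17 cells. *Tet1* contributed 7.76% and 9.23% in naive, 6.70% to 8.49% in Th1 and Th2 and 1.80% and 1.96% in Th17 libraries. The sum of the family was 23.7 and 31.4 FPKM in naive and 15.4 to 20.8 FPKM in effector libraries, without overlap.

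**Figure D3:**
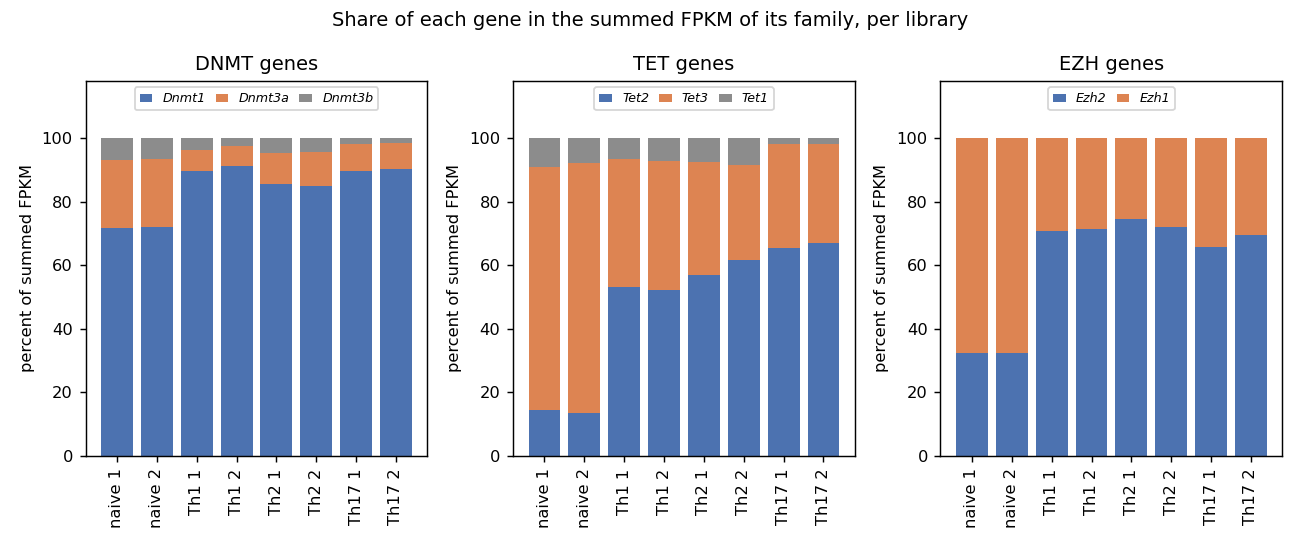
Share of each gene (y axis, percent) in the summed FPKM of the DNMT, TET and EZH genes in each of the 8 libraries (x axis, group and replicate number). *Tet3* holds 76.2% and 78.9% of the TET sum in naive libraries and at most 40.7% in effector libraries, and *Ezh2* goes from 32.4% to at least 65.6% of the EZH sum.

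*Ezh2*, the PRC2 enzyme of dividing cells, was at 11.2 and 11.9 FPKM in naive libraries, at 44.7 and 52.0 FPKM in Th1 libraries, at 51.9 and 52.2 FPKM in Th2 libraries and at 36.9 and 44.0 FPKM in Th17 libraries. Every effector library was above the naive ones, and the Th17 libraries were the lowest of the 6. The mean rose 4.19-fold in Th1, 4.51-fold in Th2 and 3.51-fold in Th17 cells, with log2 differences of 1.97 ± 0.12, 2.08 ± 0.12 and 1.72 ± 0.12 (SE, limma adjusted p = 1.06e-05, 6.82e-06 and 1.82e-05). *Ezh2* lies at chr6:47530274-47595030 on the minus strand and shares 174 exonic bases with the long noncoding RNA gene *Gm26625*, which is on the other strand.

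*Ezh1*, the form of the enzyme known from cells that do not divide, had the smallest differences among those that passed. It was at 23.4 and 24.7 FPKM in naive libraries, at 18.6 and 20.9 FPKM in Th1 libraries, at 17.6 and 20.3 FPKM in Th2 libraries and at 19.3 and 19.2 FPKM in Th17 libraries. All effector libraries were below both naive libraries, and the subsets overlapped. The naive mean was 1.22-fold, 1.27-fold and 1.25-fold the means of Th1, Th2 and Th17 cells, with log2 differences of -0.28 ± 0.10 (limma adjusted p = 0.0492), -0.33 ± 0.10 (adjusted p = 0.0246) and -0.31 ± 0.10 (adjusted p = 0.0341). These calls held in 8, 13 and 15 of 19 settings. Each was lost without naive replicate 1 (adjusted p = 0.0855, 0.0519 and 0.0659) or naive replicate 2 (0.168, 0.0990 and 0.127). The Th1 call was also lost without either Th1 library (0.236 and 0.0565) or either Th17 library (0.0765 and 0.0764), the Th2 call without Th2 replicate 1 (0.12), and the Th17 call without either Th17 library (0.103 and 0.111). With all libraries kept, the Th1 call was lost with a pseudocount of 0.1 (limma adjusted p = 0.0513), no filter (0.0519) or no trend (0.0548). It was also lost with median scaling (0.0718) and with only the 2 groups compared (0.0785). The Th2 call was lost with median scaling (0.115), quantile normalization (0.0709) and only the 2 groups compared (0.0598). *Ezh1* lies at chr11:101191115-101226450 on the minus strand.

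The ratio of *Ezh2* to *Ezh1* was 0.480 in both naive libraries, 2.41 and 2.49 for Th1 cells, 2.94 and 2.57 for Th2 cells and 1.91 and 2.29 for Th17 cells. *Ezh1* was thus the more abundant of the pair in naive libraries and *Ezh2* in every effector library. The ratio did not overlap between any of the groups, but the highest Th1 value (2.49) was close to the lowest Th2 value (2.57). Neither gene passed between Th1 and Th2 cells (limma adjusted p = 0.503 for *Ezh2* and 0.706 for *Ezh1*). How often other pairs of genes separate the groups in this way was not computed. Their sum was 34.6 and 36.5 FPKM in naive and 56.2 to 72.9 FPKM in effector libraries.

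The promoters of the 9 genes were searched for a motif of E2F factors, which are known for driving genes of S phase. RefSeq windows from 250 bases before to 50 bases after each transcription start (GRCm38.p6) held the letters TTTCGCGC, TTTGGCGC, TTTCCCGC or TTTGCCGC on either strand in 2.26% of 32851 windows. Of the 14 windows of the 9 genes, 3 held a match, 1 each of *Dnmt1*, *Uhrf1* and *Ezh2*. In the list of 20 S phase and mitosis genes used below, 7 of 19 windows did. The stretches with the match are shown because these 3 genes are among the 4 that were higher in every subset, and the matched letters are in capitals.
Dnmt1, chr9:20952624-20952873, minus strand, the 250 bases before the most downstream start: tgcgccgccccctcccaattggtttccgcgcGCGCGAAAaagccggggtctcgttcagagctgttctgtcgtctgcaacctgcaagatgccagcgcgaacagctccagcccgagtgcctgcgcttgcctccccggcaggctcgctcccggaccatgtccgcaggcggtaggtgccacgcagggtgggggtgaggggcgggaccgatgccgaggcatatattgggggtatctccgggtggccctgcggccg
Uhrf1, chr17:56304063-56304312, plus strand, the 250 bases before the downstream start: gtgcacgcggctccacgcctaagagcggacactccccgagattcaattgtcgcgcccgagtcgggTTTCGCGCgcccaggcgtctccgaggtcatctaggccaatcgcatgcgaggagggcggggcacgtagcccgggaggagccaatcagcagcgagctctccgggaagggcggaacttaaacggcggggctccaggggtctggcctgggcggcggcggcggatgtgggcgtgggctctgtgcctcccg
Ezh2, chr6:47595019-47595180, minus strand, from 150 bases before to 11 bases past the start: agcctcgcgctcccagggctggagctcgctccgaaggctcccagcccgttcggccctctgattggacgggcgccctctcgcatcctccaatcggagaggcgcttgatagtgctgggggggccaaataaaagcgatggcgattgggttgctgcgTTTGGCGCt
In the *Dnmt1* window the capitals are TTTCGCGC read on the opposite strand, and a further TTTGGCGC begins 33 bases past the start, outside the stretch. The short word CCAAT, searched on both strands, was in 37.4% of windows and in windows of *Dnmt1*, *Uhrf1*, *Ezh2* and *Tet3*. CG pairs numbered 2 to 57 in the windows of the 9 genes, most in that of *Tet2*, and the median over all windows was 7. The 3 windows with an E2F match held 31 to 33. Each E2F word searched contains CG, and the share of matches among windows with as many CG pairs was not computed. The 2.26% is thus a share over windows that mostly hold fewer CG pairs. The part of E2F factors in the changes was not tested. A match describes the letters and not a bound site.

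The effector subsets differed from each other in fewer of these genes. Between Th1 and Th2 cells 1 of 9 passed (44.3% of all genes tested), between Th17 and Th2 cells 4 of 9 (43.6%), and between Th1 and Th17 cells 3 of 9 (25.1%). The 1 gene called between Th1 and Th2 cells was higher in Th1 (27.4% of all genes tested were). Against Th2 cells, 1 was higher in Th17 cells (31.7%) and 3 were lower (12%). Between Th1 and Th17 cells, 2 were higher in Th1 (9.17%) and 1 was lower (16%). Without Th1 replicate 2, fewer of the 9 and fewer of all genes tested passed there. Over all genes tested the median log2 difference was 0.108, 0.184 and -0.0759 in these comparisons as deposited and 0.0250, 0.0245 and 0.000838 after scaling each library to a common median. Small differences between subsets are to be read against that shift.

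Th17 cells stood apart by low *Dnmt3b* and *Tet1*. Against Th2 cells, *Dnmt3b* differed by -0.88 ± 0.12 (limma adjusted p = 0.00183) and *Tet1* by -0.87 ± 0.13 (adjusted p = 0.00246). Against Th1 cells the values, as Th1 minus Th17, were 0.69 ± 0.12 for *Dnmt3b* (adjusted p = 0.00728) and 0.65 ± 0.13 for *Tet1* (adjusted p = 0.0117). By mean FPKM, Th2 cells had 2.78-fold and Th1 cells 2.30-fold the *Dnmt3b* of Th17 cells, and 4.10-fold and 3.14-fold the *Tet1*. The Th17 libraries lay below all 4 other effector libraries for both genes. These calls held in every setting in which the genes were tested, except that *Tet1* between Th1 and Th17 cells was lost without Th1 replicate 2 (adjusted p = 0.0649).

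*Uhrf1* was lower in Th2 cells than in both other subsets, by 0.51 ± 0.11 against Th1 (limma adjusted p = 0.0101) and by 0.59 ± 0.11 against Th17 cells (adjusted p = 0.00638). Th1 cells had 1.44-fold and Th17 cells 1.52-fold the Th2 mean. The difference from Th1 cells did not pass without Th1 replicate 2 (adjusted p = 0.0695) or Th2 replicate 2 (0.0600).

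*Ezh2* was lower in Th17 than in Th2 cells by 0.36 ± 0.12 (limma adjusted p = 0.0470), a call that held in 9 of 19 settings and was lost without any of 7 of the 8 libraries, Th17 replicate 2 being the exception. *Tet2* was lower in Th1 than in Th17 cells by 0.53 ± 0.14 (adjusted p = 0.0369), which held in 13 of 19 settings. It was lost without any 1 of the Th1 or Th17 libraries (adjusted p = 0.0876 to 0.193), with median scaling (0.0579) and with no filter on low values (0.0584). With the replicate number as a block, 4 more differences passed. *Dnmt1* was higher in Th1 than in Th2 cells by 0.32 (adjusted p = 0.0458). *Dnmt3a* was lower than in Th2 cells by 0.35 in Th1 (adjusted p = 0.0184) and by 0.29 in Th17 cells (adjusted p = 0.0363). *Tet2* was lower in Th1 than in Th2 cells by 0.33 (adjusted p = 0.0124). Without the block the limma adjusted p of these 4 differences was 0.0951 to 0.195, and those of *Dnmt3a* and *Tet2* also passed with other scaling. For *Dnmt3a*, median scaling gave an adjusted p of 0.0429 between Th1 and Th2 cells and 0.0431 between Th17 and Th2 cells, and quantile normalization gave 0.0399 and 0.0213. For *Tet2* between Th1 and Th2 cells they gave 0.0483 and 0.0395. With the block, members called thus went from 1 to 4 between Th1 and Th2 cells and from 4 to 5 between Th17 and Th2 cells. Calls rose over all genes tested as well, from 4961 to 5983 and from 4885 to 5969 of 11198.

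For *Tet3* and *Ezh1* no difference between subsets passed in any setting. Their estimates were 0.10, 0.02 and 0.08 for *Tet3* and 0.05, 0.02 and 0.03 for *Ezh1* (Th1 minus Th2, Th17 minus Th2, Th1 minus Th17). The 95% intervals reached from -0.34 to 0.46 for *Tet3* and from -0.22 to 0.30 for *Ezh1*, so differences of up to these sizes remain possible. With median scaling the Th17 minus Th2 values turned to -0.141 for *Tet3* and -0.152 for *Ezh1*.

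**Figure D4:**
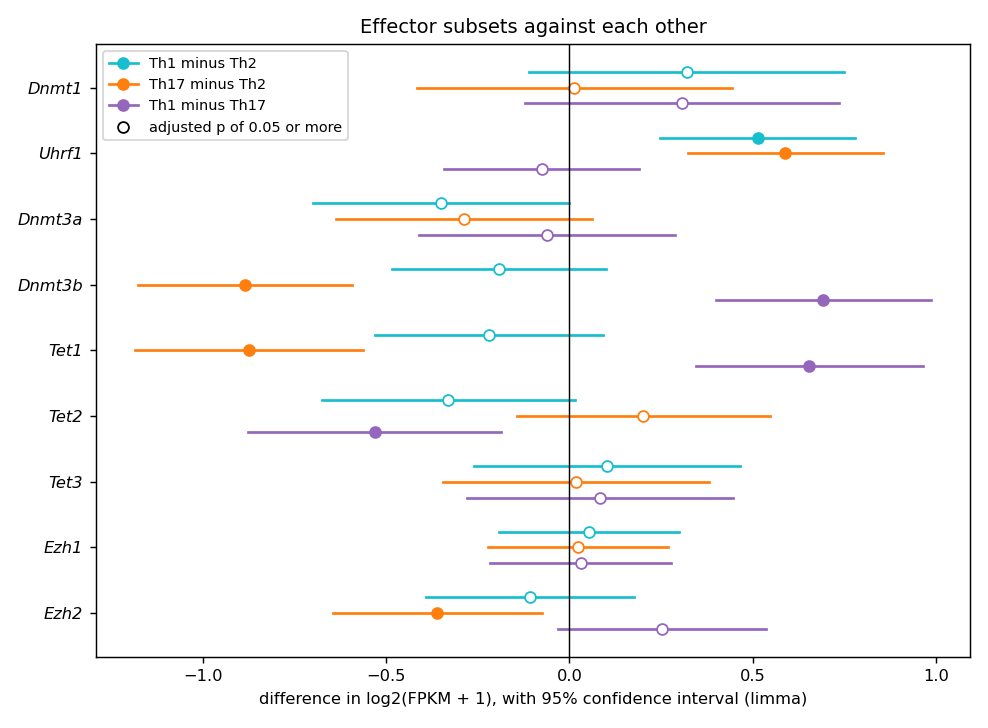
Difference between effector subsets in log2(FPKM + 1) (x axis) for each of the 9 genes (y axis), as the limma estimate with its 95% confidence interval. Filled points have an adjusted p under 0.05: *Dnmt3b* and *Tet1* in both comparisons with Th17 cells, *Uhrf1* in both comparisons with Th2 cells, *Ezh2* between Th17 and Th2 cells and *Tet2* between Th1 and Th17 cells.

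For 5 of the 9 genes, *Dnmt1*, *Dnmt3a*, *Tet1*, *Tet2* and *Ezh2*, replicate 2 was above replicate 1 in all 4 groups, as it was for 20.2% of the genes tested. For 0 of the 9 it was below in all 4, against 12.6%. By mean FPKM, the order of the 9 genes in naive cells was *Dnmt1*, *Ezh1*, *Tet3*, *Ezh2*, *Dnmt3a*, *Tet2*, *Dnmt3b*, *Tet1* and *Uhrf1*. *Ezh1* (24 ± 0.907) and *Tet3* (21.4 ± 4.76), as neighbours in that order, did not differ beyond the spread of their libraries, while the libraries of all other neighbours did not overlap. In Th1 cells the order was *Dnmt1* (60.1 ± 8.97), *Uhrf1* (51.1 ± 4.46), *Ezh2* (48.4 ± 5.19), *Ezh1* (19.7 ± 1.62), *Tet2* (8.75 ± 0.827), *Tet3* (6.74 ± 0.784), *Dnmt3a* (4.27 ± 0.369), *Dnmt3b* (2.08 ± 0.291) and *Tet1* (1.16 ± 0.183). In Th2 cells *Ezh2* was first (52.0 ± 0.245), and in Th17 cells *Uhrf1* (53.9 ± 5.24). Among these, *Dnmt1*, *Uhrf1* and *Ezh2* overlapped with their neighbours in Th1 and in Th17 libraries, and no neighbours overlapped in Th2 libraries. *Uhrf1* thus went from the last place in naive cells to the first 3 in each subset.

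Most other PRC2 subunits were higher in effector cells, as *Ezh2* was. Of 10 PRC2 partner genes, 8, 7 and 8 were higher and 2, 1 and 2 lower in Th1, Th2 and Th17 cells, with median log2 differences of 0.473, 0.886 and 0.743 against -0.0136, -0.112 and 0.0765 over all genes tested. Of all genes tested, 33.8%, 31.8% and 37.5% were higher and 33.5%, 38.7% and 29.8% lower in these comparisons. The differences of the core subunits were smaller than those of *Ezh2*. *Eed*, which binds the methylated histone, was at 27.7 ± 0.845 FPKM in naive cells and 35.0 ± 0.782, 34.0 ± 2.45 and 35.0 ± 0.275 FPKM in Th1, Th2 and Th17 cells (SD, n = 2; limma adjusted p = 0.0141, 0.0245 and 0.0141). *Suz12*, the scaffold of the complex, was at 23.8 ± 3.01 FPKM in naive cells and 34.4 ± 6.12, 51.9 ± 2.49 and 42.0 ± 5.25 FPKM in the subsets (adjusted p = 0.0254, 0.000681 and 0.00364). Of the histone-binding subunits, *Rbbp7* rose in all 3 subsets (log2 differences 1.09, 0.86 and 1.15; adjusted p = 0.000209, 0.000611 and 0.000151), and *Rbbp4* rose in Th1 (0.38) and Th17 cells (0.31) but did not pass in Th2 cells (0.21, adjusted p = 0.0871). Among accessory subunits, *Phf19* rose from 1.01 ± 0.0304 FPKM to 5.14 to 6.65 FPKM and *Aebp2* from 47.5 ± 11.5 to 132 to 184 FPKM by group means. *Phf1*, of the same Polycomb-like family as *Phf19*, fell from 103 ± 2.37 FPKM to 22.2 to 30.0 FPKM, a log2 difference of -1.75 to -2.17.

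The demethylases of the same histone mark fell. *Kdm6b* was at 27.7 ± 7.32 FPKM in naive cells and 8.22 ± 1.72, 16.9 ± 3.01 and 7.11 ± 0.858 FPKM in Th1, Th2 and Th17 cells (limma adjusted p = 0.000558, 0.0302 and 0.000319). *Kdm6a* was at 11.2 ± 0.775 FPKM in naive cells and 7.12 to 7.90 FPKM in the subsets (adjusted p = 0.00239, 0.00694 and 0.00257). With median scaling, *Kdm6a* alone of the pair passed in Th2 cells.

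PRC1 is a family of Polycomb complexes, of which some bind the mark made by EZH enzymes. Of 17 PRC1 subunits, 4 were higher in each subset, and 11, 11 and 10 were lower in Th1, Th2 and Th17 cells. The shares over all genes tested were 33.8%, 31.8% and 37.5% higher and 33.5%, 38.7% and 29.8% lower. The median log2 differences were -0.540, -0.682 and -0.525, against -0.0136, -0.112 and 0.0765 over all genes tested. *Cbx7*, a reader of methylated lysine 27, fell from 73.2 ± 5.12 FPKM in naive cells to at most 22.5 ± 2.33 FPKM. *Pcgf2* and *Phc3* rose, the first from 1.51 ± 0.237 to 5.80 to 6.86 FPKM and the second from 13.1 ± 1.44 to 25.1 to 32.4 FPKM.

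Among 18 partners in DNA methylation, 16 were tested. The higher genes numbered 5, 4 and 6 and the lower genes 5, 7 and 5 in Th1, Th2 and Th17 cells, with median log2 differences of -0.157, -0.275 and -0.0967 against -0.0136, -0.112 and 0.0765 over all genes tested. These counts are near the shares over all genes tested (33.8%, 31.8% and 37.5% higher and 33.5%, 38.7% and 29.8% lower). *Hells*, a chromatin remodeler needed for DNA methylation, rose from 2.11 ± 0.101 FPKM to 15.0 ± 2.10, 13.0 ± 0.605 and 12.6 ± 0.884 FPKM. *Gadd45g* rose from 2.05 ± 0.359 FPKM to 247 ± 7.72, 70.2 ± 6.59 and 105 ± 13.4 FPKM, whereas *Gadd45a*, of the same stress-response family, fell from 7.72 ± 1.20 to 2.09 ± 0.292, 2.80 ± 0.688 and 4.27 ± 0.0865 FPKM. *Usp7*, a deubiquitinase that binds DNMT1 and UHRF1, fell from 55.9 ± 0.414 FPKM to 26.4 to 29.5 FPKM. *Uhrf2*, the paralog of *Uhrf1*, was at 18.9 ± 0.264 FPKM in naive cells and 18.4 ± 0.635, 15.2 ± 0.0255 and 20.9 ± 0.257 FPKM in the subsets, with a difference past the threshold in Th2 cells (-0.29, limma adjusted p = 0.0125). *Dnmt3l*, the cofactor of de novo methylation in germ cells, was at most 0.0849 FPKM in any library, and *Tdg*, the glycosylase that removes oxidized methylcytosine, had a mean below 1 FPKM in each group, so neither was tested.

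Enzymes in the metabolism of the methyl donor of DNMT and EZH enzymes and of the oxoglutarate used by TET enzymes moved in both directions. Of 11, 5, 2 and 4 were higher and 6, 6 and 3 lower in Th1, Th2 and Th17 cells. Over all genes tested, 33.8%, 31.8% and 37.5% were higher and 33.5%, 38.7% and 29.8% lower. The median log2 differences of the list were -0.443, -0.542 and -0.298, against -0.0136, -0.112 and 0.0765 over all genes. *Ahcy*, which removes the product that inhibits methyltransferases, rose from 14.2 ± 1.29 FPKM to 151 ± 18.9, 72.2 ± 2.07 and 51.8 ± 8.25 FPKM. *Idh1* rose from 3.71 ± 0.240 to 6.66 to 7.36 FPKM, and its mitochondrial counterpart *Idh2* fell from 44.1 ± 2.91 to 16.5 to 22.9 FPKM. *Mat2b*, the regulatory subunit of the enzyme that makes the methyl donor, fell from 60.7 ± 9.97 to 26.2 to 31.7 FPKM.

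All 20 genes of the S phase and mitosis list were higher in each subset, against 24.8% of all genes tested that were higher in all 3, with median log2 differences of 3.31, 2.94 and 3.30. *Mki67*, a proliferation marker, was at 0.819 ± 0.342 FPKM in naive cells and 71.0 ± 13.5, 53.8 ± 3.67 and 48.9 ± 6.00 FPKM in Th1, Th2 and Th17 cells. *Top2a*, *Ccnb2* and *Cdk1*, which act in mitosis, were at 1.56 ± 0.525, 0.753 ± 0.188 and 0.272 ± 0.0360 FPKM in naive cells and at 31.8 FPKM or more in every subset. The replication factors *Pcna* and *Mcm2*, at 74.5 ± 3.07 and 20.3 ± 1.83 FPKM in naive cells, were already high there and rose by 0.85 to 2.14 on the log2 scale. Between Th1 and Th2 cells 11 of the 20 were higher in Th1 and 0 lower, against 27.4% and 16.9% of all genes tested. Between Th17 and Th2 cells 6 were higher in Th17 and 2 lower, near the shares of 31.7% and 12% over all genes tested. The part of these genes in the changes of *Uhrf1*, *Dnmt1* and *Ezh2* was not tested.

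**Figure D5:**
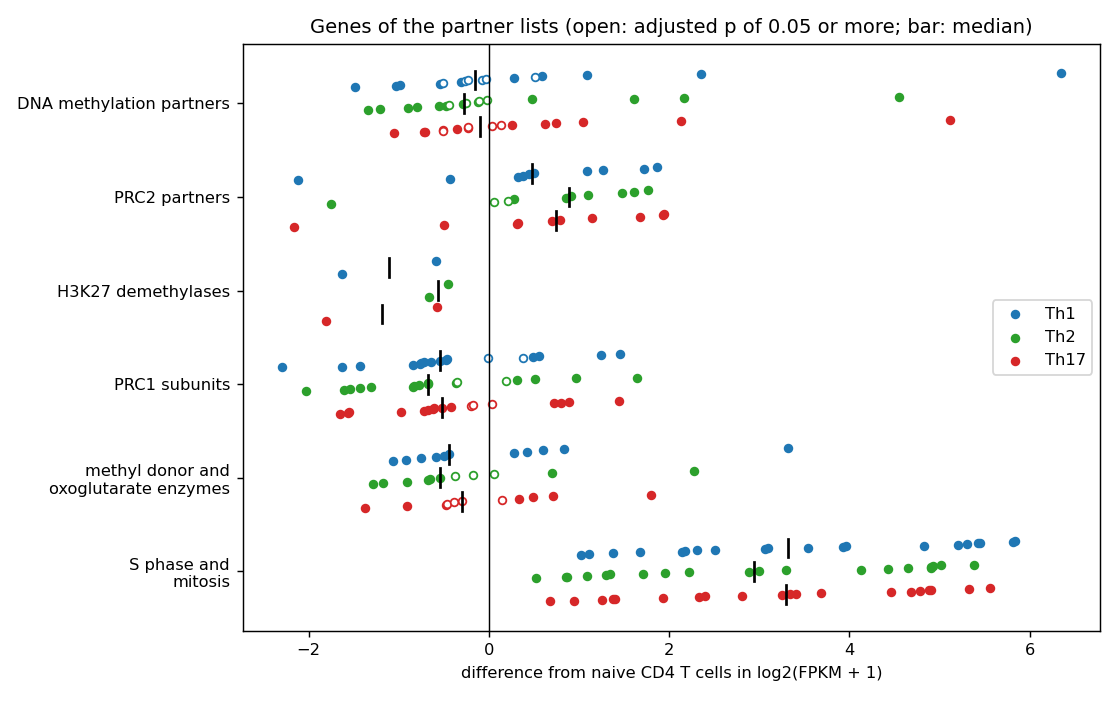
Difference from naive cells in log2(FPKM + 1) (x axis) of each tested gene of the 6 partner lists (y axis) in Th1, Th2 and Th17 cells; filled points have an adjusted p under 0.05, open points do not, and bars are list medians. All 20 genes of the S phase and mitosis list lie above 0 in each subset, with medians of 2.94 to 3.31, while both H3K27 demethylases lie below 0.

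The genes whose levels followed the members most closely were taken as the 3 with the highest Pearson correlation of log2(FPKM + 1) over the 8 libraries, which share groups and replicate numbers, so the correlations are descriptions. For *Uhrf1* they were *Tnp2*, *Chaf1a* and *Anxa2* (r = 0.9996, 0.9996 and 0.9995). *Chaf1a*, a subunit of the histone chaperone at replication forks, was at 0.337 and 0.495 FPKM in naive libraries and 15.4 to 24.8 FPKM in the others. For *Ezh2* they were *Ccnf*, *Ctdspl* and *Gpld1* (r = 0.999, 0.998 and 0.997), and for *Tet3* *Ifit1*, *Dopey1* and *Ccdc93* (r = 0.998 for each). For *Dnmt3a* they were *Nfrkb*, *Banp* and *Clint1*, with r of 0.988 to 0.994. *Lgals8*, a galectin, was among the closest genes of both *Dnmt3b* (r = 0.961) and *Tet1* (r = 0.971), and it was at 6.26 and 5.63 FPKM in Th17 libraries against 12.6 to 23.5 FPKM in the others. The closest genes were *Arid4a* for *Tet1* (r = 0.991), *Bmp2k* for *Dnmt3b* (r = 0.968), *Sec61a1* for *Dnmt1* (r = 0.984) and *Senp7* for *Ezh1* (r = 0.969).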

How the data were processed

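RNA-seq was made from 8 libraries, 2 each of naive, Th1, Th2 and Th17 cells, and groups and replicate numbers came from the sample titles. The deposited files hold FPKM per gene with the confidence limits of Cufflinks. Per the study's methods and the submitters' processing notes, the authors aligned 50-base reads to mm10 with Bowtie 0.12.8 and TopHat 1.3.2 and computed FPKM with Cufflinks 2.0.2. The gene annotation was not given in the sources used here. FPKM are not counts, so depth was only approximated, taking the half-width of each interval as 2 SD of a count. Such implied fragments also carry the uncertainty of read assignment.

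FPKM were summed per symbol. Genes with a mean of at least 1 FPKM over the 8 libraries (11198 of 23284) were tested on log2(FPKM + 1) with limma 3.58.1 in R 4.3.3 (4 group means fitted to all libraries, eBayes with trend, two-sided, Benjamini-Hochberg over all genes tested in each comparison, threshold 0.05). The program was tested on simulated data. Values are mean ± SD over 2 libraries, or limma estimate ± SE. An exact permutation test of 2 against 2 libraries cannot reach 0.05, so single values and ratios got no test. Nothing says that the replicates came from separate animals or cultures, and p-values then measure the spread between these libraries, which may be technical. Same-numbered libraries deviated together, with correlations of replicate differences of 0.138 to 0.294 over the 6 pairs of groups. The reported fit has no replicate term, so its p-values and counts treat the libraries as unpaired. Pairing by replicate number entered only as a block in an alternative fit, and no label gives a shared animal or day. Blocked values stand beside the results where they changed a call.

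The 9 genes and all lists were chosen with earlier results of these data known. Named genes were all 9, core partners and cycle markers whatever their values, and, from each partner list and direction, the 2 genes whose smallest difference from naive cells was largest among those past the threshold in all 3 subsets. Some genes that these rules name are not reported here. Alternative fits used no filter, a minimum mean of 5 FPKM, a pseudocount of 0.1, median scaling, quantile normalization, only the 2 groups compared, no trend, the replicate block, the highest row per symbol, genes with a successful estimate in every library and each library left out. With the fit itself these are 19 settings, or 18 where a gene did not reach 5 FPKM. Gene positions (mm10, counted from 1) are those of the authors' gene models, as deposited with the expression values. Strands and exon overlaps are from GENCODE for GRCm38, and promoters from RefSeq. Figures were drawn with matplotlib 3.10.9.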

Additional observations from a re-analysis of the deposited data

Results flagged for a closer look

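For 5 of the 9 genes, the change from naive cells differed between 2 effector subsets. The difference itself was tested (limma on log2(FPKM + 1)), in which the naive libraries cancel. A gene was counted if any pair of subsets passed, and the passing pair with its largest difference is given. *Dnmt3b* and *Tet1* were lower in Th17 than in Th2 cells, with differences of -0.884 (adjusted p = 0.00183) and -0.872 (adjusted p = 0.00246), and both differences held in all 18 settings in which they could be tested. *Uhrf1* rose further in Th17 than in Th2 cells, by 0.588 (adjusted p = 0.00638), and this held in all 19 settings. *Tet2* rose less in Th1 than in Th17 cells, by -0.531 (adjusted p = 0.0369; 0.00341 to 0.193 over the settings). *Ezh2* rose less in Th17 than in Th2 cells, by -0.360 (adjusted p = 0.0470; 0.00706 to 0.209 over the settings). Over all genes tested, 43.6% differed between Th17 and Th2 cells, 44.3% between Th1 and Th2 cells and 25.1% between Th1 and Th17 cells. These shares are for single pairs of subsets. The share of all genes that differed in any pair is at least 44.3% but was not computed. The count of 5 of 9 thus has no matching share to be read against. Groups of 2 libraries are too small for a check of single outlying libraries.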

How the results depend on the processing

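Of 528 differences and tests of the 9 genes under alternatives that kept all libraries, 490 kept direction and side of the threshold, 15 were lost, 12 were gained and 11 changed sign, 0 of the latter past the threshold as reported. With a library left out, the numbers were 381, 36, 1 and 14 of 432. With the replicate block, which follows the pairing by replicate number, members called between Th1 and Th2 cells went from 1 to 4. It also moved the genes called to 5 (PRC2) and 6 (PRC1) between Th17 and Th2 cells, to 4 (PRC1) between Th1 and Th2 cells, and to 1 (PRC2), 2 (methyl donor and oxoglutarate enzymes) and 8 (S phase and mitosis) between Th1 and Th17 cells. Over all 11198 genes tested, the block moved the calls in these 3 comparisons to 5969, 5983 and 3711, from 4885, 4961 and 2815. Beyond the calls given with the results, the block changed no other call of the 9 genes. With median scaling and with quantile normalization, 3 members passed between Th1 and Th2 cells, where 4819 and 4756 of all 11198 genes tested passed. Median scaling gave 1 H3K27 demethylase in Th2 cells, 5 S phase and mitosis genes between Th17 and Th2 cells, and 9 of these and 2 methyl donor and oxoglutarate enzymes between Th1 and Th17 cells. Over all 11198 genes tested it gave 7808, 4321 and 2763 in these comparisons. A minimum mean of 5 FPKM removed *Tet1* and *Dnmt3b* and left 2 members between Th17 and Th2 cells (3581 of 8379 genes tested). It left 1 between Th1 and Th17 cells (1793 of 8379 genes tested, against 2815 of 11198). *Uhrf1* and *Ezh2* in the first comparison and *Tet2* in the second still passed (limma adjusted p = 0.00606, 0.0477 and 0.0406). The members lost were thus the 2 removed genes. Apart from the smaller set of genes, the cause of the lower count over all genes was not tested.

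Signs turned only between subsets and for *Dnmt3b* in Th2 cells, in differences not called. With median scaling and quantile normalization, *Ezh1* between Th1 and Th2 cells became -0.0373 and -0.0658. Between Th17 and Th2 cells, *Dnmt1* became -0.168 and -0.125, *Tet3* -0.141 and -0.194, and *Ezh1* -0.152 and -0.137. *Dnmt3a* between Th1 and Th17 cells became 0.0106 and 0.102, and *Uhrf1* 0.0126 with median scaling. Scaling also moved the share of calls that were higher over all genes, from 72.6% to 53.3% and 50.7% between Th17 and Th2 cells, from 36.5% to 48.1% and 49.7% between Th1 and Th17 cells, and, with quantile normalization, from 61.8% to 50.9% between Th1 and Th2 cells and from 55.7% to 44.2% between Th17 and naive cells.

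With each library left out in turn, members called between Th2 and naive cells were fewest without Th2 replicate 1 and next without naive replicate 2. Those between Th1 and Th2 cells were fewest without Th1 or Th2 replicate 2, and those between Th1 and Th17 cells without Th1 replicate 2. The calls over all genes tested also fell in each of these fits, but between Th2 and naive cells by a much smaller proportion than the members. All genes called were 3106 to 4936 between Th1 and Th2, 2738 to 4876 between Th17 and Th2 and 1558 to 2759 between Th1 and Th17 cells, lowest without Th1, Th17 and Th1 replicate 2. Differences whose sign turned ranged from -0.220 to 0.0166 for *Dnmt3b* between Th2 and naive cells. Between Th1 and Th2 cells they ranged from -0.00172 to 0.205 for *Tet3*, -0.0421 to 0.149 for *Ezh1* and -0.215 to 0.000185 for *Ezh2*. Between Th17 and Th2 cells they ranged from -0.156 to 0.183 for *Dnmt1*, -0.0155 to 0.0526 for *Tet3* and -0.0725 to 0.119 for *Ezh1*. Between Th1 and Th17 cells they ranged from -0.178 to 0.0538 for *Dnmt3a*, -0.172 to 0.0224 for *Uhrf1*, -0.0203 to 0.187 for *Tet3* and -0.0493 to 0.110 for *Ezh1*. Where 1 library of a group was left, it was assumed to vary like the other groups. Depth limits *Uhrf1* in naive cells and *Dnmt3b* and *Tet1* in Th17 cells, which rest on 46 to 156 implied fragments.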

Other observations

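The ratio of *Dnmt3a* to *Dnmt3b* was 3.19 and 3.35 in naive libraries, 1.75 and 2.41 for Th1 cells, 2.18 and 2.36 for Th2 cells and 4.70 and 5.26 for Th17 cells. The ratio of *Tet3* to *Tet1* was 8.26 and 10.2 in naive libraries, 6.00 and 5.66 for Th1 cells, 4.83 and 3.52 for Th2 cells and 16.7 and 17.3 for Th17 cells. Th17 cells were thus the highest of the groups in both ratios. The neutrophil markers summed to 7.65, 6.52 and 7.28 FPKM in replicate 1 of Th1, Th2 and Th17 cells and to 0.181, 0.0425 and 0.545 FPKM in replicate 2. The sums of replicate 1 came mostly from *Mpo* and *Elane*.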
